A study of Homo sapiens with 9 samples.

Results

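The genes of the mitochondrial ribosomal proteins were followed in COR-L279 cells, an established human small cell lung cancer line of the SCLC-N subtype, which expresses the neurogenic transcription factor NEUROD1. They were chosen by symbol alone, as MRPL or MRPS followed by a number and at most 1 letter, and make up 77 of the 17518 genes in the normalized count table. By symbol, 47 belong to the large subunit and 30 to the small subunit. The 77 rows carry 76 symbols, because MRPS17 is listed under 2 identifiers. All 77 passed the filter on low values. The wild-type cells were kept for 24 h in DMSO, the vehicle, or in JQ1 at 0.5 or 1.5 µM, with 3 libraries of total RNA per group, called biological replicates in the labels. JQ1 is a small molecule that competes with acetylated histones for the bromodomains of the BET proteins, which support transcription by RNA polymerase II. All libraries come from this 1 cell line and this 1 time point, and in bulk RNA fewer cells of a type and less RNA per cell cannot be told apart.

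The mitochondrial ribosome translates the few proteins that mitochondrial DNA encodes, all of them subunits of the respiratory chain or of ATP synthase. Its rRNA is transcribed inside the organelle, but all of its proteins are encoded in the nucleus, made in the cytosol and imported. The large subunit joins amino acids and holds the exit tunnel, which lies against the inner membrane, and the small subunit binds the mRNA and reads its codons. Many of the proteins have a bacterial counterpart and others were gained in the mitochondrial lineage. The symbols follow older assignments: by structure MRPS18A and MRPS30 sit in the large subunit, and MRPS36 belongs to the 2-oxoglutarate dehydrogenase complex.

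The libraries held 60721187 to 88482001 reads in genes. The 6 neuroendocrine markers summed to 1349 to 1370.3 FPKM (read fragments scaled for transcript length and library size) in DMSO, 1305 to 1314 at 0.5 µM and 1278 to 1305 at 1.5 µM. Within this list CHGA, SYP and DLL3 fell and NEUROD1 and NCAM1 rose at both doses, with log2 fold changes between -1.21 and 0.63 at 0.5 µM and between -1.57 and 0.67 at 1.5 µM, and INSM1 did not pass. Of 11 markers of other lung, blood and stromal cells, 4 were in the normalized table, and the summed list stood at 16.3 to 17.7 FPKM in DMSO, 5.96 to 13.9 at 0.5 µM and 5.68 to 12.1 at 1.5 µM. The markers outside that table stayed at or below 0.63 FPKM. HEXIM1, a gene that commonly rises when BET proteins are inhibited, had log2 fold changes of 2.29 at 0.5 µM and 2.63 at 1.5 µM. In 0.5 µM replicate 3 and 1.5 µM replicates 1 and 2, the noncoding RNA H19 stood at 1563, 2071 and 1476 normalized counts, against 63.8 to 82.8 in DMSO and 1.04 to 8.22 in the other 3 JQ1 libraries. In 0.5 µM replicate 2, 72 of the 77 mitochondrial ribosomal protein genes had the highest value of their group, which was the case for 42.6% of all genes tested. The counts of members called, and the named calls that were lost without these libraries, are given below also without them. Leaving out the 3 libraries high in H19 keeps 2 libraries at 0.5 µM and 1 at 1.5 µM, which is then assumed to vary like the other groups, so a call lost at 1.5 µM under this setting is by itself no sign of a smaller change.

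Most mitochondrial ribosomal protein genes had less RNA after JQ1, and few had more. At 0.5 µM, 43 of the 77 fell and 6 rose against DMSO, while 28 did not pass the test (limma, adjusted p under 0.05 over all 17514 genes tested). Among all genes tested, 34.7% fell and 35.3% rose in this comparison. At 1.5 µM, 55 fell and 8 rose against DMSO, while 14 did not pass. Here 36.2% of all genes tested fell and 36.9% rose. The share of these genes that fell was thus above the background at both doses and the share that rose was below it. Both doses were set against the same DMSO libraries. At 0.5 µM all 3 values lay below all 3 DMSO values for 41 members and above them for 7, against 36.4% and 36.2% of all genes. At 1.5 µM this held for 57 members below and 10 above, against 41.0% and 40.7% of all genes. Without 0.5 µM replicate 2, 56 members fell and 5 rose at 0.5 µM. Without the 3 libraries high in H19, 34 fell and 7 rose at 0.5 µM, and 47 fell and 5 rose at 1.5 µM.

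The changes were mostly small. The median log2 fold change over the 77 was -0.21 at 0.5 µM and -0.31 at 1.5 µM, beside -0.01 and -0.003 over all genes tested. At 1.5 µM, 16 members were over 1.5-fold lower and 1, MRPL15, was over 2-fold lower. None was over 1.5-fold higher at 1.5 µM.

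**Figure D1:**
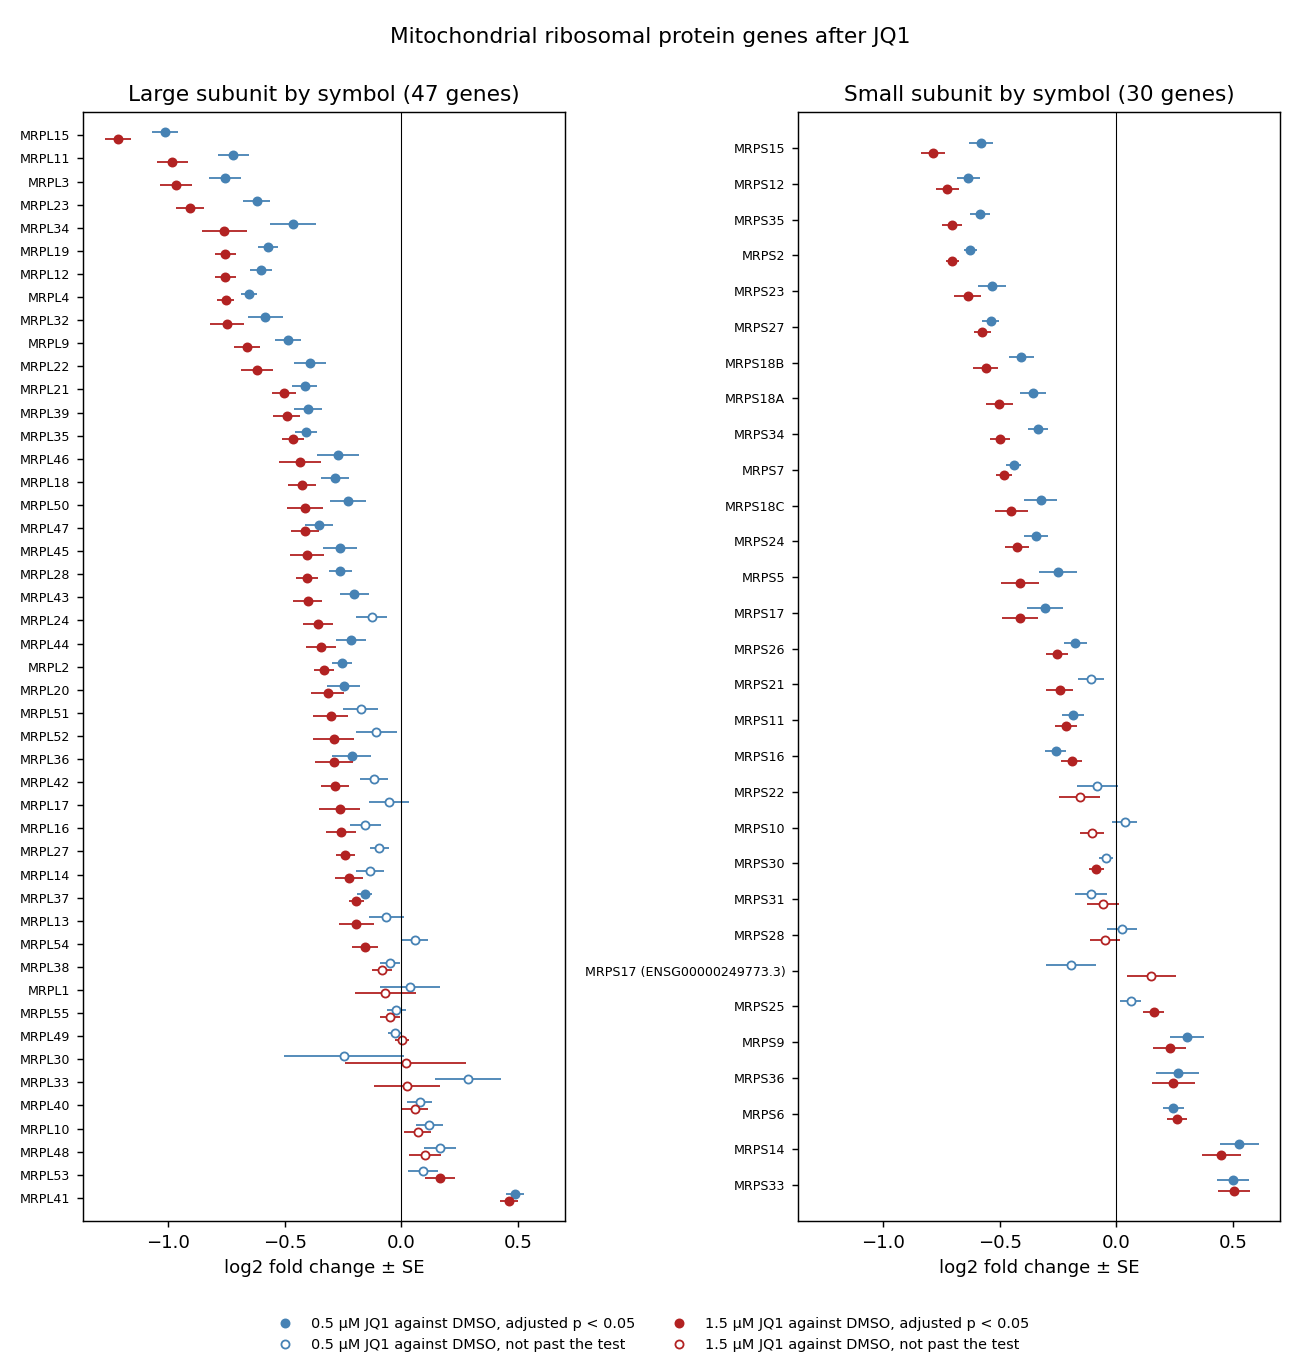
Log2 fold change against DMSO of each mitochondrial ribosomal protein gene at 0.5 µM (blue) and 1.5 µM JQ1 (red), with its standard error, for the 47 large subunit genes (left) and the 30 small subunit genes (right) by symbol. Filled points passed the test at an adjusted p under 0.05. MRPL15 lies furthest left at -1.01 and -1.21, and MRPL41, MRPS14 and MRPS33 lie to the right of 0 at both doses.

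The promoters of the members that the results turn on are shown before their values, since promoter sequence is independent of the read counts. RefSeq promoter windows of GRCh38.p14, from 250 bases before to 50 after the start, were available for 67 of the 76 symbols. Each window was searched on both strands for 4 motifs: CACGTG, the E-box bound by MYC and MAX, CGCATGCG, a core of NRF1 sites, CCGGAAG, a core of ETS sites such as those of GABPA, and AAGATGGC, a core of YY1 sites. These motifs do not contain each other. The stretches below run from 100 bases before to 30 after the start, with any motif in capitals. The first 4 belong to members that fell at 1.5 µM and MRPS33 to a member that rose. MRPL11, which fell, and MRPL41, which rose, are shown because none of the 4 motifs occurs in their whole window. MRPS12, MRPS2 and MRPS33 have 2 listed starts each, of which 1 is shown. For MRPS2 and MRPS33 it is the start whose stretch holds a motif, and the stretch of the other start holds none. Outside the stretches shown, the windows also held the ETS motif in MRPL51, the YY1 motif in MRPS12 and the E-box in MRPS33.
MRPL3 (chr3:131502942-131503071, minus strand): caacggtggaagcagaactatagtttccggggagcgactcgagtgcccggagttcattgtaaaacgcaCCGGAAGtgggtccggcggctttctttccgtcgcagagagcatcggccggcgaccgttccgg
MRPS12 (chr19:38930844-38930973, plus strand): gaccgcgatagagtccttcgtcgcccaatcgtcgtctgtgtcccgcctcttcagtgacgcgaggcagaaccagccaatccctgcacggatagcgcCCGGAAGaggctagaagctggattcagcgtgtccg
MRPS2 (chr9:135499865-135499994, plus strand): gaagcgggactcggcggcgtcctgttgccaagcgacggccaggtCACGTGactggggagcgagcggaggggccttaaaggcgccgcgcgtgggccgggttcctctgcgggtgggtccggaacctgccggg
MRPL51 (chr12:6493233-6493362, minus strand): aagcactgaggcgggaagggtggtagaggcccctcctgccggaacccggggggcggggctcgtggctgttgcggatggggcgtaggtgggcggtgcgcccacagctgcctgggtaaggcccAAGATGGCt
MRPS33 (chr7:141014923-141015052, minus strand): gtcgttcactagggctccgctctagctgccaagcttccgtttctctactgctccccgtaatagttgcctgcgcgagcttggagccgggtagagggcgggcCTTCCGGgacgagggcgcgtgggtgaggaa
MRPL11 (chr11:66438819-66438948, minus strand): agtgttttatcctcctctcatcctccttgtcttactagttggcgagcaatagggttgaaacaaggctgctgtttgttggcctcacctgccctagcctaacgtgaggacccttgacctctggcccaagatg
MRPL41 (chr9:137551779-137551908, plus strand): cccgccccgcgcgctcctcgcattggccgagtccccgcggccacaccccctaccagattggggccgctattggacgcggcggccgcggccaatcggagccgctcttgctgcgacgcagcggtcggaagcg
The stretch of MRPL3 holds the ETS motif ahead of the start and that of MRPS12 at the start. The stretch of MRPS2 holds the E-box, and that of MRPL51 holds the YY1 motif after the start. The stretch of MRPS33 holds the ETS motif on the opposite strand, written CTTCCGG, after the start.

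Over all 67 promoters, the ETS motif was present in 29, or 43.3% (exact 95% interval 31.2% to 55.96%), against 12.2% of the 27305 genes in the promoter table. The YY1 motif was present in 21, or 31.3% (20.6% to 43.8%), against 3.52% of all genes. When the window ended at the start, the YY1 share was 7.46% against 1.64%, so that most matches reached or lay in the 50 bases after the start. The E-box was present in 9 (13.4%, 6.33% to 24.0%) against 8.77% of all genes, and the NRF1 motif in 3 (4.48%, 0.933% to 12.5%) against 2.46%. The promoters of all genes were not matched to those of the members in base composition or in expression. The 27305 genes include genes outside the 17514 tested in these cells, whereas all members were tested.

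The motifs can be set beside the response at 1.5 µM. Of the 21 members with the YY1 motif, 18 fell and 3 did not pass, and the median log2 fold change was -0.41. Of the 46 without it, 31 fell and 7 rose, with a median of -0.26. Of the 29 members with the ETS motif, 19 fell and 2 rose, with a median of -0.25, and of the 38 without it 30 fell and 5 rose, with a median of -0.41. Of the 9 members with an E-box, 7 fell and 1, MRPS33, rose, with a median of -0.29. Of the 58 without it, 42 fell and 6 rose, with a median of -0.33. All 3 members with the NRF1 motif fell, with a median of -0.45. Of the 64 without it, 46 fell and 7 rose, with a median of -0.31. At this dose 36.2% of all genes tested fell and 36.9% rose. These counts were not tested, and a match in the sequence is not a bound site.

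**Figure D2:**
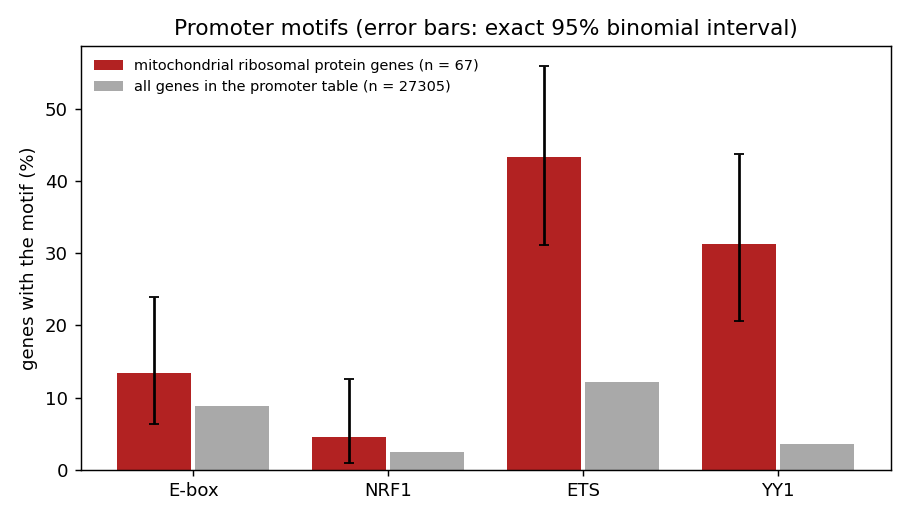
Share of genes with each of 4 motifs in the promoter window, for the 67 mitochondrial ribosomal protein genes (red, with exact 95% binomial intervals) and for all 27305 genes of the promoter table (grey). The ETS and YY1 motifs stood at 43.3% and 31.3% of the members, against 12.2% and 3.52% of all genes.

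In the large subunit, 26 of 47 genes fell (55.3%) and 1 rose at 0.5 µM, and 36 fell (76.6%) and 2 rose at 1.5 µM. Their median log2 fold change was -0.21 and -0.33. In the small subunit, 17 of 30 fell (56.7%) and 5 rose at 0.5 µM, and 19 fell (63.3%) and 6 rose at 1.5 µM. The small subunit medians were -0.22 and -0.25. Of all genes tested, 34.7% fell and 35.3% rose at 0.5 µM, and 36.2% fell and 36.9% rose at 1.5 µM. The medians of both subunits were negative under all 24 alternative settings at both doses. Moving MRPS18A and MRPS30 to the large subunit and leaving out MRPS36, as the structures would have it, gave 38 of 49 lower in the large and 17 of 27 lower in the small subunit at 1.5 µM.

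Summed over each subunit, the large subunit genes had 3125, 3067 and 2974 FPKM in the DMSO libraries, 2436, 2874 and 2361 at 0.5 µM, and 2352, 2259 and 2271 at 1.5 µM. All 6 JQ1 libraries were below the DMSO libraries, and 0.5 µM replicate 2 was the nearest to them. The small subunit genes summed to 1809, 1766 and 1704 FPKM in DMSO, 1445, 1628 and 1409 at 0.5 µM, and 1418, 1378 and 1389 at 1.5 µM. The ratio of the large to the small sum was 1.64 ± 0.0122 at 1.5 µM against 1.74 ± 0.0087 in DMSO (SD, n = 3 each), with no overlap. At 0.5 µM it was 1.69, 1.77 and 1.68, so that replicate 2 lay above the DMSO libraries and the other 2 below them. Both sums of 1.5 µM replicate 3, the replicate low in H19, lay between those of replicates 1 and 2. Of all reads in genes, the 77 genes took 0.452%, 0.443% and 0.429% in DMSO, 0.352%, 0.392% and 0.342% at 0.5 µM, and 0.340%, 0.328% and 0.332% at 1.5 µM.

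**Figure D3:**
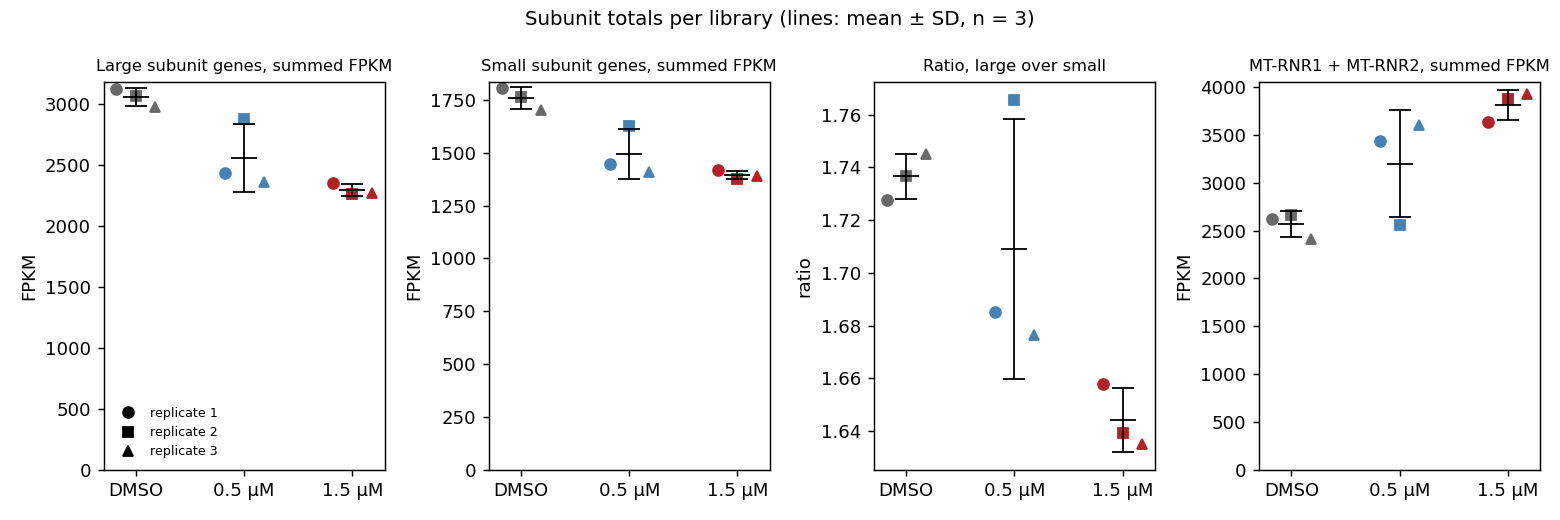
Summed FPKM of the large and small subunit genes, the ratio of these sums (axis not starting at 0) and the summed FPKM of the 2 mitochondrial rRNAs, per library in DMSO, 0.5 µM and 1.5 µM JQ1, with mean ± SD (n = 3). In 0.5 µM replicate 2 (square) the sums stand nearer to DMSO than in the other JQ1 libraries.

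Of the 29 genes of large subunit proteins with a bacterial counterpart, 19 fell at 0.5 µM and 25 at 1.5 µM and the others did not pass. These are 65.5% and 86.2%, against 34.7% and 36.2% of all genes tested, with median log2 fold changes of -0.29 and -0.41. MRPL15, the counterpart of bacterial L15, changed most of all 77. It had 4616, 4509.9 and 4508 normalized counts in DMSO, 2173, 2489 and 2111 at 0.5 µM, and 1963, 1909.7 and 2002 at 1.5 µM. The 3 groups of MRPL15 did not overlap, and its log2 fold change was -1.01 (SE 0.0563, adjusted p = 8.45e-08) at 0.5 µM and -1.21 (adjusted p = 1.41e-08) at 1.5 µM. MRPL3, a protein of the peptidyl transferase region and among the 4 members with the highest FPKM, had 14356, 14471 and 14185 normalized counts in DMSO, 8014, 9784 and 7829.6 at 0.5 µM, and 7367, 7239 and 7407 at 1.5 µM. Its log2 fold change was -0.75 (SE 0.0691) at 0.5 µM and -0.97 at 1.5 µM. MRPL4, whose bacterial counterpart lines the exit tunnel, fell by 0.65 (SE 0.0348) and 0.75 on the log2 scale.

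MRPL34 had 2328, 2347 and 2306 normalized counts in DMSO, 1596, 2033 and 1481 at 0.5 µM, and 1463, 1302 and 1367 at 1.5 µM. It fell by 0.46 (SE 0.0979) and 0.76 on the log2 scale, and 0.5 µM replicate 2 lay nearest to the DMSO values. That library stood further apart in MRPL33, with 2423, 2377 and 2267 normalized counts in DMSO, 2486, 3886 and 2461 at 0.5 µM, and 2414, 2448 and 2324 at 1.5 µM. MRPL33 did not pass at either dose (log2 fold change 0.29, 95% interval -0.03 to 0.60, and 0.02, -0.29 to 0.34). It was named after its values were seen.

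The stalk of the large subunit recruits the translation factors. Of its 3 proteins in the table, MRPL11 and MRPL12 fell at both doses and MRPL10, which anchors the stalk, did not pass. Of the 77 members, 55.8% fell at 0.5 µM and 71.4% at 1.5 µM, against 34.7% and 36.2% of all genes. MRPL11 had 3507, 3542 and 3371 normalized counts in DMSO, 1987, 2379 and 1985 at 0.5 µM, and 1785, 1762 and 1732 at 1.5 µM, and its groups did not overlap. Its log2 fold change was -0.72 (SE 0.0645, adjusted p = 3e-06) and -0.98 (adjusted p = 1.98e-07). MRPL12, the stalk protein itself, had 7926, 7744 and 7291 normalized counts in DMSO, 5011, 5278 and 4845 at 0.5 µM, and 4723, 4379 and 4513 at 1.5 µM. It fell by 0.60 (SE 0.0455) and 0.75 on the log2 scale. MRPL10 had log2 fold changes of 0.12 (95% interval -0.01 to 0.25) at 0.5 µM and 0.07 (-0.06 to 0.20) at 1.5 µM.

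At the tunnel exit and the membrane contact, all 6 genes listed (MRPL17, MRPL22, MRPL23, MRPL24, MRPL45 and MRPL47) fell at 1.5 µM and 4 of them at 0.5 µM. Of all genes tested, 36.2% fell at 1.5 µM and 34.7% at 0.5 µM. The call of MRPL17 at 1.5 µM (log2 fold change -0.26) was lost without DMSO replicate 1 (adjusted p = 0.0511), without 1.5 µM replicate 2 (adjusted p = 0.0541) and without the libraries high in H19, where the log2 fold change was -0.28 (adjusted p = 0.121, 1 library left at 1.5 µM). MRPL23 had 3235, 3186 and 3050.1 normalized counts in DMSO, 2058, 2219 and 1895 at 0.5 µM, and 1774, 1617 and 1663 at 1.5 µM. Its log2 fold change was -0.62 (SE 0.0593) and -0.91. MRPL23 is a close neighbour of H19 in the genome, and without the 3 libraries high in H19 its log2 fold change was -0.56 and -0.92. MRPL24 had 2326, 2347 and 2316 normalized counts in DMSO, 2079, 2385 and 1959 at 0.5 µM, and 1885, 1841 and 1735 at 1.5 µM. It fell by 0.36 (adjusted p = 0.00055) at 1.5 µM on the log2 scale and did not pass at 0.5 µM (-0.13, adjusted p = 0.107), where it did pass without replicate 2 (-0.21, adjusted p = 0.000866). MRPL45, which ties the ribosome to the inner membrane, had log2 fold changes of -0.26 and -0.41, and its call at 0.5 µM was lost without the libraries high in H19 (adjusted p = 0.0780).

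In the central protuberance, which faces the small subunit, 3 of 6 genes (MRPL18, MRPL27 and MRPL46) fell at 1.5 µM and MRPL38, MRPL40 and MRPL48 did not pass. Of the 18 large subunit genes without a bacterial counterpart, 7 fell and 1 rose at 0.5 µM and 11 fell and 2 rose at 1.5 µM. The share that fell was 38.9% and 61.1%, against 34.7% and 36.2% of all genes tested, with medians of -0.11 and -0.24. MRPL51 had the highest FPKM of all members, 205 ± 2.06 at 1.5 µM against 249 ± 6.98 in DMSO (SD, n = 3 each), and fell by 0.30 on the log2 scale (adjusted p = 0.00443). At 0.5 µM it had 9316, 11479 and 8961 normalized counts against 11457, 11195 and 10731 in DMSO, did not pass (adjusted p = 0.0637), and did without replicate 2 (-0.28). MRPL50 fell by 0.41 on the log2 scale at 1.5 µM. Its fall of 0.23 at 0.5 µM passed (adjusted p = 0.0212) but was lost when DMSO replicate 1 or 2 or 0.5 µM replicate 1 or 3 was left out (adjusted p 0.0586 to 0.0815) and without the libraries high in H19 (-0.18, adjusted p = 0.147).

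MRPL41, also without a bacterial counterpart, went the other way. It had 3482, 3319 and 3319 normalized counts in DMSO, 4743, 4857 and 4586 at 0.5 µM, and 4747, 4479.7 and 4711 at 1.5 µM. All 6 JQ1 values lay above the DMSO values, and the log2 fold change was 0.49 (SE 0.0377, adjusted p = 9.85e-07) at 0.5 µM and 0.46 (adjusted p = 1.1e-06) at 1.5 µM. Between the doses it differed by -0.03 (95% interval -0.11 to 0.06). MRPL53 rose at 1.5 µM by 0.17 on the log2 scale (adjusted p = 0.0379), a call that was lost without DMSO replicate 3 (0.092, adjusted p = 0.144) or without any 1.5 µM replicate (adjusted p 0.0540 to 0.124). It was also lost with FPKM values (adjusted p = 0.0889), without the trend (adjusted p = 0.0649), with upper-quartile scaling (0.12, adjusted p = 0.132) and without the libraries high in H19 (0.15, adjusted p = 0.272, 1 library left).

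Of the 17 small subunit genes with a bacterial counterpart, 11 fell and 3 rose at 0.5 µM and 12 fell and 3 rose at 1.5 µM. The share that fell was 64.7% and 70.6%, against 34.7% and 36.2% of all genes tested, with medians of -0.26 and -0.41. MRPS15 had the lowest log2 fold change of the 17 at 1.5 µM, with 6224, 6024 and 5708 normalized counts in DMSO, 3976, 4279.9 and 3764 at 0.5 µM, and 3581, 3455 and 3369 at 1.5 µM. Its groups did not overlap and its log2 fold change was -0.58 (SE 0.0513) and -0.79 (adjusted p = 1.87e-07). MRPS12, the counterpart of the bacterial decoding-site protein S12, had 3450.4, 3370.0 and 3350.3 normalized counts in DMSO, 2080.2, 2315 and 2159 at 0.5 µM, and 2117, 1941 and 2104 at 1.5 µM. It fell by 0.64 (SE 0.0491) and 0.72 on the log2 scale, with overlap between the doses. MRPS2 had 7459, 7168 and 7296 normalized counts in DMSO, 4716, 4774 and 4719.8 at 0.5 µM, and 4543, 4448 and 4478 at 1.5 µM, and fell by 0.63 (SE 0.0285) and 0.70. In MRPS2 the 0.5 µM replicates lay close together.

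MRPS14, MRPS6 and MRPS9, which also have bacterial counterparts, rose. MRPS14 had 2392, 2225 and 2253 normalized counts in DMSO, 3179, 3861 and 2922 at 0.5 µM, and 3165, 3055 and 3157 at 1.5 µM, with a log2 fold change of 0.53 (SE 0.0835, adjusted p = 0.000221) and 0.45 (adjusted p = 0.000601). MRPS6 had log2 fold changes of 0.25 (SE 0.0441) and 0.26, and all 6 of its JQ1 values lay above the DMSO values. MRPS9 had log2 fold changes of 0.30 and 0.23, and its call at 1.5 µM was lost without 1.5 µM replicate 1 (0.21, adjusted p = 0.0509) and with FPKM values (0.17, adjusted p = 0.0919). Without the libraries high in H19 it was 0.23 with 1 library left at 1.5 µM (adjusted p = 0.0988).

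Among the 9 small subunit genes without a bacterial counterpart, 5 fell and 1 rose at 0.5 µM and 5 fell and 2 rose at 1.5 µM. The share that fell was 55.6% at each dose, against 34.7% and 36.2% of all genes tested. MRPS33 had the highest log2 fold change of all members at 1.5 µM. It had 2495, 2463 and 2313 normalized counts in DMSO, 3345, 3857 and 3122 at 0.5 µM, and 3467, 3529 and 3323 at 1.5 µM. Its log2 fold change was 0.50 (SE 0.0687, adjusted p = 7.61e-05) and 0.51 (adjusted p = 6.02e-05). MRPS34, with the second highest FPKM of the members, stood at 217 ± 4.97 FPKM in DMSO, 164 ± 11.9 at 0.5 µM and 145 ± 3.60 at 1.5 µM (SD, n = 3 each), and fell by 0.34 and 0.50 on the log2 scale. MRPS31 did not pass at either dose (-0.11 and -0.06), and passed at 0.5 µM without replicate 2 (-0.18, adjusted p = 0.00965). MRPS25 rose at 1.5 µM by 0.16 on the log2 scale (adjusted p = 0.00682), a call that was lost with FPKM values (0.10, adjusted p = 0.199).

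The 3 paralogs MRPS18A, MRPS18B and MRPS18C, which occupy different places in the ribosome, all fell at both doses. At 0.5 and 1.5 µM, 55.8% and 71.4% of the 77 members fell, and 34.7% and 36.2% of all genes tested. MRPS18A had log2 fold changes of -0.36 and -0.50, MRPS18B of -0.41 and -0.56, and MRPS18C of -0.32 and -0.45, and in all 3 genes the JQ1 values lay below the DMSO values. MRPS30, which sits in the large subunit, fell by 0.09 on the log2 scale at 1.5 µM (adjusted p = 0.0297). That call was lost when DMSO replicate 1 or 2 or any 1.5 µM replicate was left out (adjusted p 0.0646 to 0.108), without the trend (adjusted p = 0.0568) and without the libraries high in H19 (-0.091, adjusted p = 0.151, 1 library left). At 0.5 µM MRPS30 did not pass, and it did without replicate 2 (-0.069, adjusted p = 0.0265). MRPS36, the dehydrogenase component, had log2 fold changes of 0.26 (adjusted p = 0.0257) and 0.24 (adjusted p = 0.0345). Its call at 0.5 µM was lost without DMSO replicate 2 or 3 or 0.5 µM replicate 2 (adjusted p 0.0531 to 0.102), and its call at 1.5 µM without DMSO replicate 2 or 3 or any 1.5 µM replicate (adjusted p 0.0620 to 0.132). With FPKM values MRPS36 turned to -0.14 at 0.5 µM (adjusted p = 0.273) and stood at 0.073 at 1.5 µM (adjusted p = 0.564). Upper-quartile scaling also ended both calls (adjusted p = 0.0585 and 0.0759), as did the fit to the 6 libraries compared at 0.5 µM (adjusted p = 0.0560) and the fit without the trend at 1.5 µM (adjusted p = 0.0608). Without the libraries high in H19 it stood at 0.22 at 1.5 µM (adjusted p = 0.243, 1 library left).

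**Figure D4:**
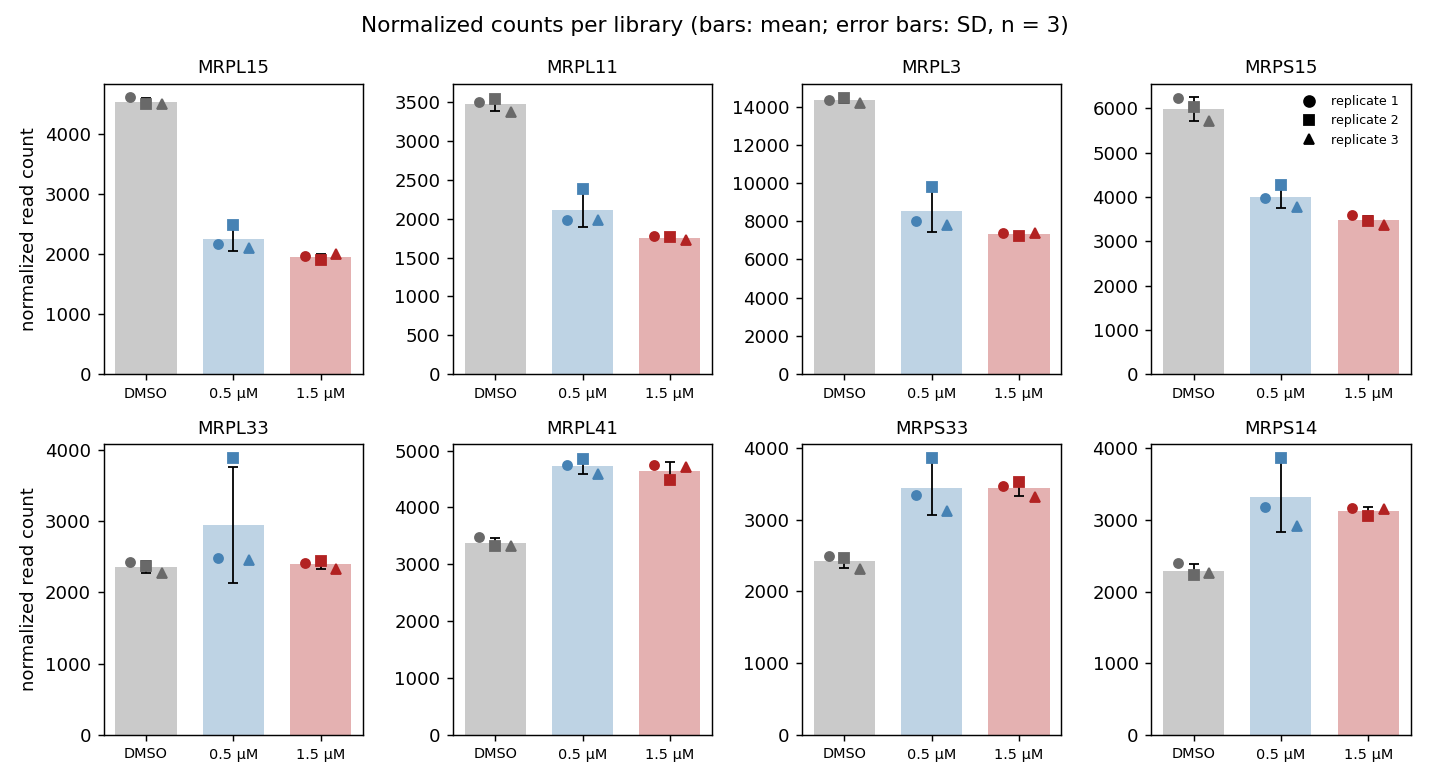
Normalized read counts per library of 4 members that fell (MRPL15, MRPL11, MRPL3 and MRPS15), of MRPL33, and of 3 that rose (MRPL41, MRPS33 and MRPS14) in DMSO, 0.5 µM and 1.5 µM JQ1. Bars give the mean and error bars the SD (n = 3), and in MRPL33 0.5 µM replicate 2 (square) stands at 3886 against 2486 and 2461 in the other replicates.

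Of the 14 members that did not pass at 1.5 µM, MRPL49 had the smallest SE, with log2 fold changes of -0.03 (95% interval -0.09 to 0.04) and 0.00 (-0.07 to 0.07), and was named after its values were seen. MRPL30 was the least certain, with 610.4, 497 and 303 normalized counts in DMSO, 431, 421 and 303 at 0.5 µM, and 612, 398 and 392 at 1.5 µM. Its SE was 0.258, and its log2 fold change of 0.02 at 1.5 µM turned negative under several alternatives. The FPKM values also list a second identifier of MRPL30, at 0.06 to 0.48 FPKM, which has no normalized counts and is not among the 77. How reads were shared between the MRPL30 identifiers was not tested. The second identifier of MRPS17, ENSG00000249773.3, had the lowest FPKM of the 77 (2.50 ± 0.271 in DMSO). It carries another name in a later annotation, so the reads of both MRPS17 identifiers are uncertain. The first identifier had log2 fold changes of -0.30 and -0.41 and passed at each dose, and the second did not pass (-0.19 and 0.15). Without the libraries high in H19 the first stood at -0.30 at 1.5 µM (adjusted p = 0.0653, 1 library left).

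Between the doses, the differences were smaller. At 1.5 µM against 0.5 µM, 9 members fell and none rose (limma), while 8.09% of all genes tested fell and 4.66% rose. At an unadjusted p under 0.05, 27 were lower and 2 higher, and edgeR called 0 and DESeq2 1 of the members higher. The 9 were MRPL11, MRPL15, MRPL19, MRPL23, MRPL24, MRPL27, MRPL54, MRPS15 and MRPS34. MRPL23 had the largest difference of the 3 named by rule (log2 fold change -0.29, SE 0.0593, adjusted p = 0.013), with 1774, 1617 and 1663 normalized counts at 1.5 µM against 2058, 2219 and 1895 at 0.5 µM. MRPL11 differed by -0.26 (adjusted p = 0.027) and MRPL24 by -0.23 (adjusted p = 0.0458). The log2 fold change of 1.5 µM against 0.5 µM was negative in 68 of the 77, and in 8761 of all 17514 genes tested. The 68 include 0.5 µM replicate 2 in the comparison, which had the highest value of its group in 72 of the 77. None of the 9 calls held under all 24 alternatives: 0 remained without 1.5 µM replicate 2 or 3, and the number was 3 without DMSO replicate 2 or without 0.5 µM replicate 1, 4 without 1.5 µM replicate 1, 5 without DMSO replicate 3, 6 without DMSO replicate 1 and 18 without 0.5 µM replicate 3. Each of the 9 calls held without 0.5 µM replicate 2, where 1 member was also called higher. The large subunit median between the doses was -0.13, and -0.04 without 0.5 µM replicate 2.

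Levels per length varied widely among the members. In DMSO the mean FPKM ran from 2.50 to 249, with a median of 54.03, and the large and small subunit medians were 51.6 and 55.1 FPKM. Across the 77 genes, the DMSO FPKM and the log2 fold change had a Spearman rho of -0.276 at 1.5 µM and -0.228 at 0.5 µM. This is a description across genes, which share the DMSO libraries on both axes and are not independent.

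The mitochondrial ribosome also holds proteins with other symbols. Of 7 such genes, 4 fell and 1 rose at 0.5 µM and 6 fell and 1 rose at 1.5 µM. GADD45GIP1, a large subunit protein, had 8093, 7675 and 7733 normalized counts in DMSO, 5527, 6727 and 5427 at 0.5 µM, and 4794, 4576 and 4845 at 1.5 µM, and fell by 0.42 (SE 0.0712) and 0.73 on the log2 scale. MRP63, another large subunit protein, rose by a log2 fold change of 0.19 and 0.23. The genes of the cytosolic ribosomal proteins, matched by symbol, had medians of -0.21 and -0.22. Of these 87, 57 fell and 8 rose at 0.5 µM, and 58 fell and 9 rose at 1.5 µM. The share that fell was thus 65.5% and 66.7%, beside 55.8% and 71.4% of the 77 mitochondrial ribosomal protein genes. Of all genes tested, 34.7% and 36.2% fell.

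Among genes that serve the mitochondrial ribosome, some fell and others rose. Of 27 assembly factors, 11 fell and 8 rose at each dose, or 40.7% and 29.6%, near the shares of all genes tested (34.7% lower and 35.3% higher at 0.5 µM, and 36.2% and 36.9% at 1.5 µM). MRM1, an rRNA methyltransferase, had a log2 fold change of -1.02 at 1.5 µM and FASTKD2 of -0.62, while NOA1 and RBFA rose by 0.55 and 0.56. Of 17 translation factors, 11 fell at each dose (64.7%) and 3 and 4 rose. TACO1, a translational activator of COX1, had a log2 fold change of -1.02 at 1.5 µM, and MTFMT, which formylates the initiator tRNA, of 0.82. Of 22 genes for mitochondrial tRNA charging, 8 fell and 7 rose at 0.5 µM (36.4% and 31.8%) and 9 fell and 6 rose at 1.5 µM (40.9% and 27.3%), again near the shares of all genes. Of 11 genes for mitochondrial DNA transcription and replication, 6 fell and 2 rose at each dose (54.5% and 18.2%). TFB2M, a transcription initiation factor, fell by 0.68 on the log2 scale at 1.5 µM, and C10orf2, the replicative helicase, by 1.08, whereas POLG, the polymerase, rose by 1.33.

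Of 12 regulators of mitochondrial gene expression, 7 fell and 5 did not pass at 0.5 µM, and 7 fell and 1 rose at 1.5 µM. The share that fell was 58.3% at each dose, against 34.7% and 36.2% of all genes tested. Of all genes tested, 35.3% and 36.9% rose. The coactivators PPARGC1B and PPRC1 fell by 1.68 and 0.95 on the log2 scale at 1.5 µM. MYC fell to 19819 ± 159 normalized counts at 1.5 µM, against 31636 ± 76.2 in DMSO (SD, n = 3 each). NRF1 rose by a log2 fold change of 0.16 at 1.5 µM. YY1 had 11362 ± 37.3 normalized counts in DMSO, 11185 ± 218 at 0.5 µM and 11176 ± 35.9 at 1.5 µM (SD, n = 3 each), and did not pass, nor did GABPA.

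The mitochondrial rRNAs that these proteins bind had higher values after JQ1. MT-RNR2, the large subunit rRNA, had 193881, 197722 and 181638 normalized counts in DMSO, 275374, 197593 and 288884 at 0.5 µM, and 295504, 316559 and 322568 at 1.5 µM. It rose at 0.5 µM (log2 fold change 0.39, SE 0.117, adjusted p = 0.0119) and at 1.5 µM (0.71, adjusted p = 0.00026), although its value in 0.5 µM replicate 2 lay within the DMSO range. MT-RNR1, the small subunit rRNA, rose at 1.5 µM (0.33, adjusted p = 0.00444) and did not pass at 0.5 µM (0.13). The labels do not say whether the kit removed part of these rRNAs. Of the 13 mitochondrial mRNAs, all had log2 fold changes of -0.08 to 0.13 at 0.5 µM and did not pass by limma (0 of 13 also at an unadjusted p under 0.05 and by edgeR, 1 by DESeq2), and MT-ND4 rose at 1.5 µM by 0.20 on the log2 scale (adjusted p = 0.0157).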

How the data were processed

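RNA was extracted with an RNeasy kit and sequenced from stranded TruSeq libraries, per the labels. The submitters' processing notes name cutadapt, STAR, RSEM and hg19. Versions and the strand setting were not stated, so reads of overlapping genes are uncertain. The authors deposited FPKM values and normalized counts, a signal of gene counts divided by a size factor per library, of which 100% came out as whole reads within 0.001. No spike-in was stated, so changes are relative to all genes.

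Limma 3.58.1 (R 4.3.3) was fitted with a trend to log2(normalized count + 1) of all 9 libraries, for the 17514 genes with at least 10 normalized counts in 3 libraries. Two-sided p-values set each group difference against the spread between these libraries. They were adjusted by Benjamini-Hochberg over all genes, with 0.05 as threshold. The script was tested on simulated data. Alternatives were edgeR 4.0.16, DESeq2 1.42.0, FPKM, other pseudocounts, filters, scalings and fits, a replicate block, and libraries left out. Members are named if among the 6 largest calls of each sign per dose, the 3 between doses or the 4 highest or lowest by FPKM, or preset. Members, lists and tests were chosen with earlier results of these data known. Of the 77 identifiers, 75 matched GENCODE release 29.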

Additional observations from a re-analysis of the deposited data

How the results depend on the processing

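Across the 24 alternatives, 34 of the 43 lower and 5 of the 6 higher calls at 0.5 µM, and 46 of the 55 lower and 4 of the 8 higher calls at 1.5 µM, held under every alternative. Upper-quartile scaling gave subunit medians of -0.28 (small, 0.5 µM), -0.38 (large, 1.5 µM) and -0.30 (small, 1.5 µM). Under that scaling the median over all genes tested also moved, to -0.064 at 0.5 µM and -0.054 at 1.5 µM. In the main fit it was -0.010 and -0.003. With FPKM values the median over all genes was -0.044 at 0.5 µM and -0.055 at 1.5 µM. FPKM values gave -0.40 (large, 1.5 µM) and -0.29 (small, 1.5 µM), and 4 members higher at 1.5 µM. Leaving out single libraries gave 5 to 10 members higher at 1.5 µM, and 5 without the 3 libraries high in H19, which keeps 1 library at 1.5 µM. At 1.5 µM against 0.5 µM, the 9 lower calls became 17 with DESeq2, 3 with FPKM, 21 with library weights, 1 without the trend, 1 with the 6 libraries compared and 0 without the libraries high in H19, where 1 library is set against 2 and MRPL11, MRPL23 and MRPL24 had log2 fold changes of -0.33, -0.36 and -0.36. Leaving out single libraries gave 0 to 18 lower and 0 to 1 higher, DESeq2 gave 1 higher and library weights 2. The small subunit median between the doses was -0.037 with library weights and -0.11 to -0.026 with single libraries left out. The YY1 share was 7.46% in the window that ends at the start. MRPL30 at 1.5 µM reversed to -0.0080 with DESeq2, -0.013 with edgeR, -0.13 with library weights, -0.032 with upper-quartile scaling and -0.20 without the libraries high in H19, and ran from -0.27 (without DMSO replicate 3) to 0.24 with single libraries left out, with -0.19 without 1.5 µM replicate 1. MRPS36 at 0.5 µM reversed to -0.14 with FPKM (adjusted p = 0.273). The cause of these shifts was not tested. Same-numbered libraries did not deviate together (correlations -0.385 to 0.131), so no pairing by number was seen. With 3 libraries per group, such correlations cannot exclude that same-numbered libraries were handled together. With a replicate block, 45 members were lower and 7 higher at 0.5 µM, 56 and 8 at 1.5 µM, and 7 and 0 between the doses. The second MRPS17 identifier had the lowest FPKM of the members, and the part of depth in the wide spread of MRPL30 was not tested.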
